A study of Mus musculus with 8 samples.

Results

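The genes described here are 10 members of the BCL-2 family, which sets whether a cell lives or dies by the mitochondrial route: Bcl2, Bcl2l1, Bcl2l2, Mcl1, Bcl2l11, Bmf, Pmaip1, Bbc3, Bax and Bak1. They were taken by symbol from a table of read counts for 27179 mouse genes. All 10 passed the filter on low counts, with 13794 genes tested in all. RNA was sequenced from natural killer T (NKT) cells sorted from the thymus of C57BL/6 mice, either wild-type (WT, 4 libraries) or Ezh2 knock-out (Ezh2-KO, 4 libraries). NKT cells are T cells that recognise lipids presented by CD1d and mature in the thymus through steps marked by CD44 and then NK1.1. Each genotype gave 1 library of CD44- NK1.1- cells (the earliest of the 3 subsets), 2 libraries of CD44+ NK1.1- cells and 1 library of CD44+ NK1.1+ cells (the most mature). The series design text calls the 2 CD44+ NK1.1- libraries biological replicates. The sources used here name neither the knocked-out allele, nor the cells that lack it, nor the age and sex of the mice, and leave out whether 1 mouse gave several subsets. Every sample was a bulk RNA pool, so fewer cells expressing a gene and less of its RNA per cell cannot be told apart.

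The BCL-2 family works by binding between its own members. Pro-survival proteins (BCL-2, BCL-XL from Bcl2l1, BCL-W from Bcl2l2, and MCL-1) hold back the effectors BAX and BAK, which otherwise open the outer mitochondrial membrane and release cytochrome c. The BH3-only proteins (BIM from Bcl2l11, BMF, NOXA from Pmaip1, and PUMA from Bbc3) bind the pro-survival proteins and set the effectors free. In T cells BCL-2 and MCL-1 are maintained by cytokines such as IL-7 and IL-15, and BIM is the main BH3-only opponent of BCL-2. EZH2 is the enzyme of Polycomb repressive complex 2 that methylates lysine 27 of histone H3, a mark of repressed genes that lies mostly on promoters rich in CpG.

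Promoter sequence from RefSeq (GRCm38.p6) was taken for 9 of the 10 genes, from 250 bases before to 50 bases after an annotated start. Pmaip1 was left out by name, so its promoter is not described. The sequences shown are those of Bcl2 and Bcl2l11, which rose together in the most mature subset, and of Bmf, which was higher in Ezh2-KO cells. Capitals mark the motifs searched on both strands: the GC box GGGCGG, the forkhead motif TGTTTAC, the STAT motif TTCNNNGAA and the T-box motif TCACACC.
Bcl2 (chr1:106714241-106714540, minus strand): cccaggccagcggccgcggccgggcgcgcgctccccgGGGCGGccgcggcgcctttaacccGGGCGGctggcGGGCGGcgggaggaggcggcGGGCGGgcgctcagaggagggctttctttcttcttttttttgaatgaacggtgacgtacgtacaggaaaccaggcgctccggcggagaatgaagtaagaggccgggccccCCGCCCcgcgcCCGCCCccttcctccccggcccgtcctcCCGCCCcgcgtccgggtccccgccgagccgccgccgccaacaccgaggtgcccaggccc
Bcl2l11, first of 2 listed starts (chr2:128125788-128126087, plus strand): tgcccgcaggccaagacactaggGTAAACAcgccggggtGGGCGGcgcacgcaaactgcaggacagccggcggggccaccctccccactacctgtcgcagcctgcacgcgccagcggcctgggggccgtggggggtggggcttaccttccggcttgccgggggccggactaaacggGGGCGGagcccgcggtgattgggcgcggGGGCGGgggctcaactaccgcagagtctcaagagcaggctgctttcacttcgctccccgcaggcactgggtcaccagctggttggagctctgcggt
Bmf, first of 3 listed starts (chr2:118549637-118549936, minus strand): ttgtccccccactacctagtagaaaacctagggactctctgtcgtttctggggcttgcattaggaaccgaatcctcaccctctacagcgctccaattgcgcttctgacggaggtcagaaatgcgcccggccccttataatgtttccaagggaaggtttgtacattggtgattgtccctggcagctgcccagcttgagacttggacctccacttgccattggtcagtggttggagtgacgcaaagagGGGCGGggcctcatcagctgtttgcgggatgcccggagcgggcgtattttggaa

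The Bcl2 promoter held 44 CpG sites, at least as many as 98.07% of 32841 annotated promoters of the same length, whose median was 7. It held 7 GC boxes and none of the other 3 motifs. At the first start of Bcl2l11 the window held 27 CpG sites, 3 GC boxes and a forkhead motif on the minus strand that begins 227 bases before the start. The second start had 38 CpG sites and 3 GC boxes but no forkhead motif. A forkhead motif also lay 167 bases before the second start of Bbc3, a gene not called at the last maturation step. At the first start of Bmf there were 13 CpG sites and 1 GC box, and the other 2 starts had 6 and 8 CpG sites and no GC box. Over all annotated promoters the GC box was present in 35.7%, the forkhead motif in 3.65%, the STAT motif in 8.30% and the T-box motif in 3.98%. These matches describe letters only. No chromatin or binding data were analysed here.

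Depth was 20308745 to 22995090 counts per library. Levels are in CPM, counts scaled to 1000000 per library after TMM normalization. Ezh2 itself was reduced in Ezh2-KO libraries of each subset, at 77.9 to 83.3 against 109 to 136 CPM in the NK1.1- subsets and 40.4 against 57.2 in CD44+ NK1.1+ cells. Its fitted log2 change over the 3 subsets was −0.56 (adjusted p = 0.00402). Which exons the allele lacks is not stated, so these levels do not show how much intact transcript remained. Zbtb16, which encodes the NKT cell regulator PLZF, stood at 114 to 449 CPM and Cd3e, a subunit of the T cell receptor complex, at 380 to 621 CPM across the 8 libraries. Cd44 stood at 17.0 and 17.9 CPM in the CD44- libraries and at 135 to 452 CPM in the others. Klrb1c, which encodes NK1.1, was at 1146 and 1447 CPM in CD44+ NK1.1+ cells and at 15.4 to 217 CPM elsewhere, its highest value outside the gate being that of WT CD44+ NK1.1- replicate 1. That library also stood apart in a list of 11 immediate early genes such as Fos, which respond within minutes to stimulation. They summed to 2877 CPM in it and to 434 to 836 CPM in the other 7 libraries. Fos itself gave 125 CPM in it, 1.80 to 6.17 CPM in the other WT libraries and 12.8 to 37.8 CPM in the Ezh2-KO libraries. Of the 10 family members, 4 differed by more than 1.5-fold between the WT replicates, as did 12.4% of 12487 genes with at least 10 counts in both. None did between the Ezh2-KO replicates, where the share was 2.64% of 12701 genes. The 4 were Pmaip1 (2.23-fold), Bbc3 (2.03-fold), Bcl2 (1.98-fold) and Mcl1 (1.62-fold), each higher in WT replicate 1. The part of the early response genes in these levels was not tested.

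Per length of transcript, the effectors and Mcl1 were the most abundant family members. On the scale of CPM per 1000 bases of the deposited gene length (RPKM), the median level over the 8 libraries was 93.6 for Bax, 59.8 for Mcl1 and 59.3 for Bak1. Bcl2l1 followed at 12.7, Bbc3 at 8.81, Bcl2l11 at 7.54 and Bcl2 at 4.22. Pmaip1 at 2.31, Bmf at 2.06 and Bcl2l2 at 0.884 were the scarcest. Mcl1 supplied 60.9 to 81.7% of the summed RPKM of the 4 pro-survival genes among them in each library. The pro-survival A1 genes Bcl2a1a, Bcl2a1b and Bcl2a1d, given further on, are not in that sum or that order, and their RPKM is not given here. In CPM, Bcl2a1b at 135 to 174 lay above Bax at 72.0 to 85.6, so the order does not hold for the whole family. The widest range of group means was that of Bcl2, at 11.9-fold in CPM, and the narrowest that of Bax, at 1.17-fold.

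**Figure D1:**
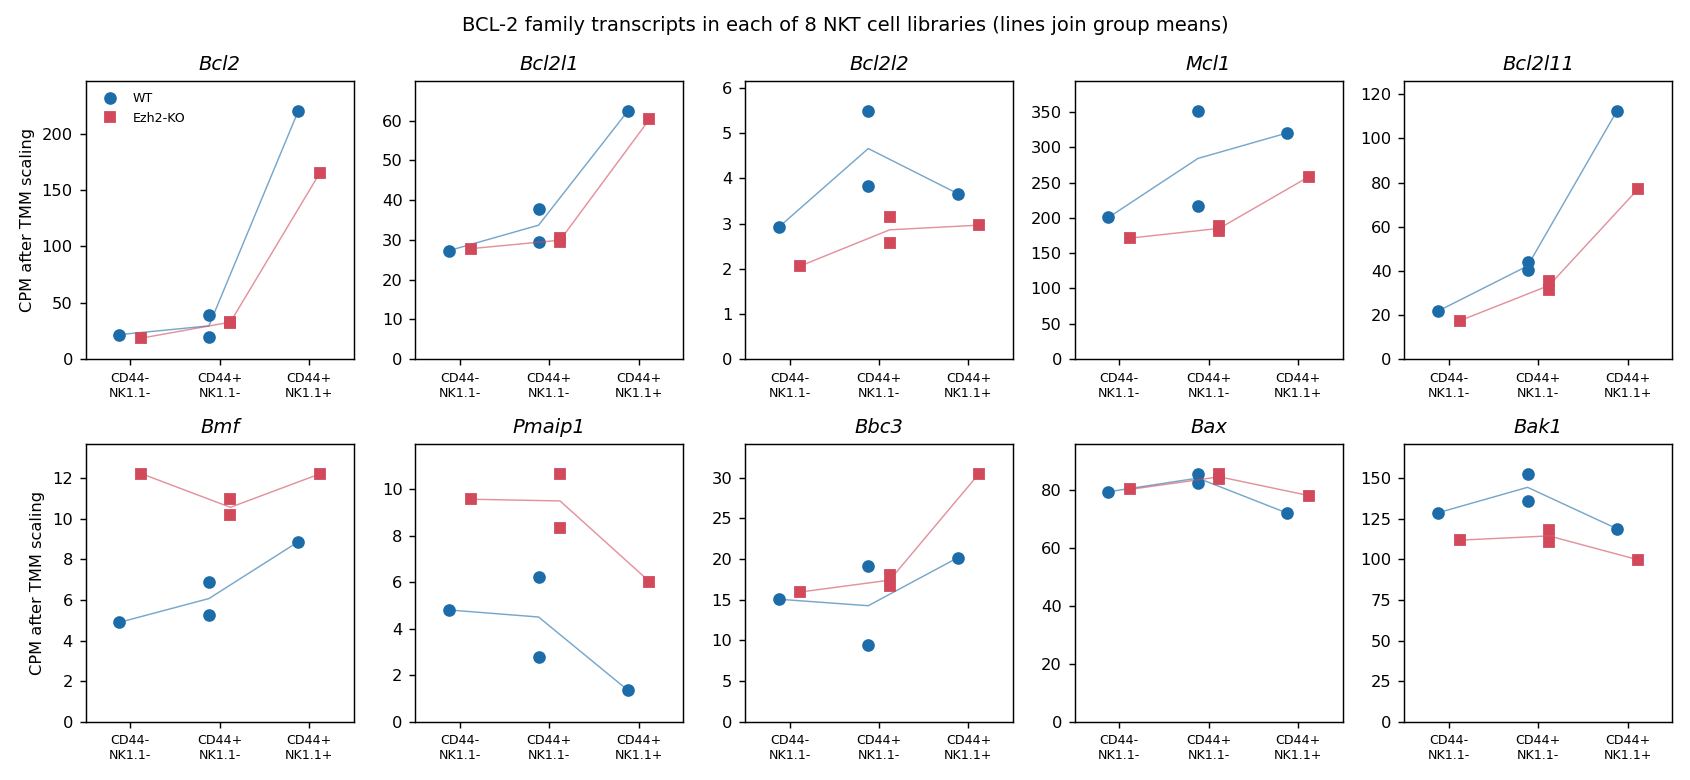
Level of each of the 10 genes in each of the 8 libraries, in CPM after TMM scaling (vertical axis, from 0), by subset (horizontal axis); circles are WT, squares are Ezh2-KO, and lines join the group means. Bcl2, Bcl2l1, Bcl2l11 and Bbc3 were highest in the 2 CD44+ NK1.1+ libraries, while Bmf and Pmaip1 were higher in Ezh2-KO than in WT in every subset.

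The comparison of CD44+ NK1.1+ with CD44+ NK1.1- cells, taken as the mean over both genotypes, shows the family at the last maturation step. Here 3 of the 10 genes rose and none fell. Of all genes 32.5% were called in this comparison, 16.4% as higher and 16.1% as lower, so the share of members called lay near the background. A gene was called at an adjusted p under 0.05 in edgeR's quasi-likelihood test. The median log2 change of the 10 genes was 0.35, against 0.00 over all genes. Those that rose were the pro-survival genes Bcl2 and Bcl2l1 and the BH3-only gene Bcl2l11.

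Bcl2, the founding pro-survival gene, gave 220.2 CPM in the WT and 165 CPM in the Ezh2-KO library of CD44+ NK1.1+ cells. In CD44+ NK1.1- cells it gave 39.1 and 19.7 CPM in WT and 32.3 and 33.2 CPM in Ezh2-KO. In CD44- NK1.1- cells it was at 21.7 CPM in WT and 18.5 CPM in Ezh2-KO. Both CD44+ NK1.1+ libraries therefore lay far above the other 6, whose values ran into each other. In order, the group means were highest in WT and then Ezh2-KO CD44+ NK1.1+ cells, followed by Ezh2-KO CD44+ NK1.1- (32.7 ± 0.615 CPM, SD, n = 2), WT CD44+ NK1.1- (29.4 ± 13.7 CPM, SD, n = 2), WT CD44- NK1.1- and Ezh2-KO CD44- NK1.1- cells. The last 4 could not be ordered beyond the spread of the WT replicates. From CD44+ NK1.1- to CD44+ NK1.1+ cells Bcl2 rose by 2.62 on the log2 scale (SE 0.27, adjusted p = 0.00419), or 6.15-fold. The rise was called in WT alone (log2 2.91, SE 0.38, adjusted p = 0.0199), where 10.3% of genes were called, and in Ezh2-KO alone (log2 2.33, SE 0.38, adjusted p = 0.0219), where 18.6% were.

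Bcl2l11, the gene for BIM, rose at the same step. It gave 113 CPM in the WT and 77.3 CPM in the Ezh2-KO CD44+ NK1.1+ library, against 44.0 and 40.5 CPM in WT and 35.5 and 31.2 CPM in Ezh2-KO CD44+ NK1.1- cells. The step was 1.31 on the log2 scale (SE 0.10, adjusted p = 0.000718). Unlike the other members, Bcl2l11 was also called at the earlier step, from 21.8 CPM in WT and 17.3 CPM in Ezh2-KO CD44- NK1.1- cells, with a log2 change of 0.95 (SE 0.11, adjusted p = 0.0111). Its level thus stood in the same order in both genotypes, lowest in CD44- NK1.1- and highest in CD44+ NK1.1+ cells, with no overlap between subsets. From the earliest to the latest subset the log2 change was 2.26 (SE 0.12, adjusted p = 0.000247).

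Bcl2l1, the gene for BCL-XL, gave 62.5 and 60.3 CPM in WT and Ezh2-KO CD44+ NK1.1+ cells. All other libraries lay between 27.3 and 37.8 CPM. The rise at the last step was 0.95 on the log2 scale (SE 0.12, adjusted p = 0.00349), and each genotype alone gave a call, with log2 changes of 0.89 (adjusted p = 0.0294) in WT and 1.01 (adjusted p = 0.0148) in Ezh2-KO. Mcl1, a short-lived protein that T cells need at every stage, gave 320.3 and 258 CPM in WT and Ezh2-KO CD44+ NK1.1+ cells. In the other 6 libraries it ranged from 171 to 352 CPM, so the subsets overlapped, and its log2 difference at the last step was 0.33 (SE 0.19, adjusted p = 0.246). Bcl2l2, at 2.06 to 5.50 CPM, showed a log2 difference of −0.15 (SE 0.23, adjusted p = 0.648).

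Among the other BH3-only genes none was called by edgeR at the last step. Bbc3, a target of p53, gave 20.2 CPM in WT and 30.5 CPM in Ezh2-KO CD44+ NK1.1+ cells and 9.42 to 19.1 CPM in the other libraries (log2 difference 0.66, SE 0.28, adjusted p = 0.125). Pmaip1, whose product NOXA binds mainly MCL-1, had its lowest level in the WT CD44+ NK1.1+ library (1.35 CPM, 28 counts). Its log2 difference was −1.19 (SE 0.37, adjusted p = 0.0563). DESeq2 called it as lower (log2 −1.20, adjusted p = 0.0263), as the fourth member beside Bcl2, Bcl2l1 and Bcl2l11, and limma-voom did not (log2 −1.12, adjusted p = 0.0866). Bmf differed by 0.38 (SE 0.16, adjusted p = 0.112). The effectors were not called: Bax spanned 72.0 to 85.6 CPM over all libraries, with a log2 difference of −0.17 (SE 0.08, adjusted p = 0.148), and Bak1 showed −0.24 (SE 0.09, adjusted p = 0.0877).

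By level alone, Bcl2, Bcl2l1, Bcl2l11 and Bbc3 had both CD44+ NK1.1+ libraries above all 6 others, as 21.7% of all genes did, and Bax had both below, as 21.1% did. From CD44- NK1.1- directly to CD44+ NK1.1+ cells the same 3 genes were called, beside 32.2% of all genes: Bcl2 (log2 3.25), Bcl2l11 (log2 2.26) and Bcl2l1 (log2 1.16). At the first step, from CD44- NK1.1- to CD44+ NK1.1- cells, Bcl2l11 was the single member called, beside 2.66% of all genes. Bcl2 there gave a log2 difference of 0.63 (SE 0.30, adjusted p = 0.426). The call of Bcl2l11 at that step was lost without Ezh2-KO CD44+ NK1.1- replicate 1 (log2 0.90, adjusted p = 0.0837) or replicate 2 (log2 1.0, adjusted p = 0.0618). Without WT replicate 1 of that subset 4 members were called, and without replicate 2 there were 6, in fits with 1 residual degree of freedom, from the Ezh2-KO pair, that called 25.2% and 31.9% of all genes. All these comparisons share libraries.

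**Figure D2:**
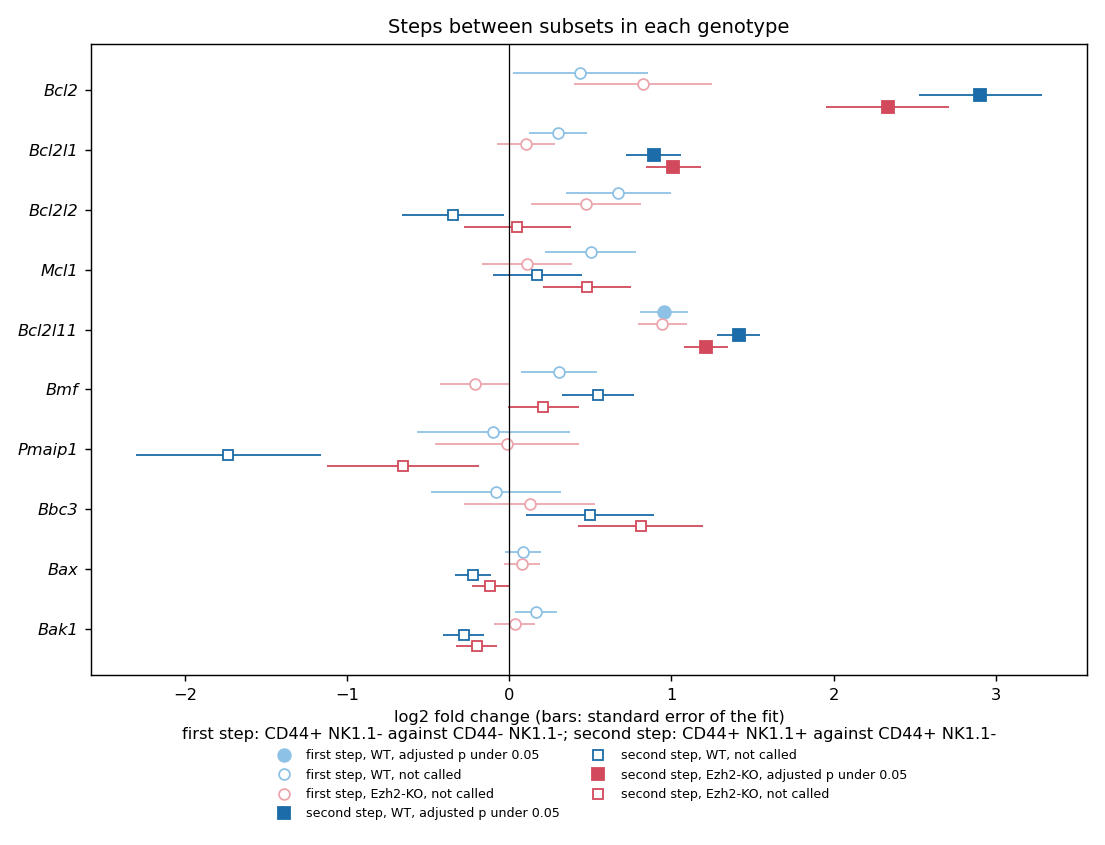
Log2 fold change at the first step (circles, CD44+ NK1.1- against CD44- NK1.1-) and the second step (squares, CD44+ NK1.1+ against CD44+ NK1.1-) for each gene, in WT (blue) and Ezh2-KO (red); bars are standard errors of the fit and filled symbols mark an adjusted p under 0.05. Bcl2, Bcl2l1 and Bcl2l11 have filled squares in both genotypes.

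Each genotype had 1 CD44+ NK1.1+ library, so its error was taken from the replicated CD44+ NK1.1- group, and leaving out WT replicate 1 or 2 of that group, which leaves 1 residual degree of freedom from the closely matched Ezh2-KO pair, raised the members called to 9 in each case and the share of all genes called to 62.6% and 57.2%. With libraries scaled by total counts in place of TMM the median of all genes moved to −0.13 and 6 members were called, beside 35.0% of all genes, among them Pmaip1 (log2 −1.33), Bax (log2 −0.30) and Bak1 (log2 −0.38) as lower.

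Genes listed as markers of NK and innate lymphoid cells also moved with the last step. Of the 6 listed genes (Ncr1, Eomes, Klra4, Klra8, Klra1 and Il1rl1) 5 were higher, beside 16.4% of all genes. The 6 summed to 396 and 1200 CPM in CD44+ NK1.1+ cells, 87.4 to 241 CPM in CD44+ NK1.1- cells and 13.9 to 15.7 CPM in CD44- NK1.1- cells. Ncr1, which marks NK cells, was at 4.73 and 6.79 CPM in the CD44+ NK1.1+ libraries, at 0 in 4 of the other 6 and at most 0.225 CPM in the remaining ones. Their part in the levels of Bcl2, Bcl2l1 and Bcl2l11 was not tested.

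The ratio of Bcl2 to Bcl2l11 was higher in the most mature subset. In RPKM it was 1.27 in WT and 1.39 in Ezh2-KO CD44+ NK1.1+ cells and 0.317 to 0.693 in the other 6 libraries. Of the summed RPKM of Bcl2, Bcl2l1, Bcl2l2 and Mcl1, Bcl2 made up 19.2% and 17.5% in WT and Ezh2-KO CD44+ NK1.1+ cells. Elsewhere it made up 3.26 to 6.10%. The lowest ratio was that of WT CD44+ NK1.1- replicate 2, the library with the lower Bcl2 of its pair. Mcl1 exceeded Bcl2 by 3.23-fold and 3.47-fold in CD44+ NK1.1+ cells and by 12.2-fold to 24.4-fold in the others. These ratios are given as descriptions and were not tested.

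**Figure D3:**
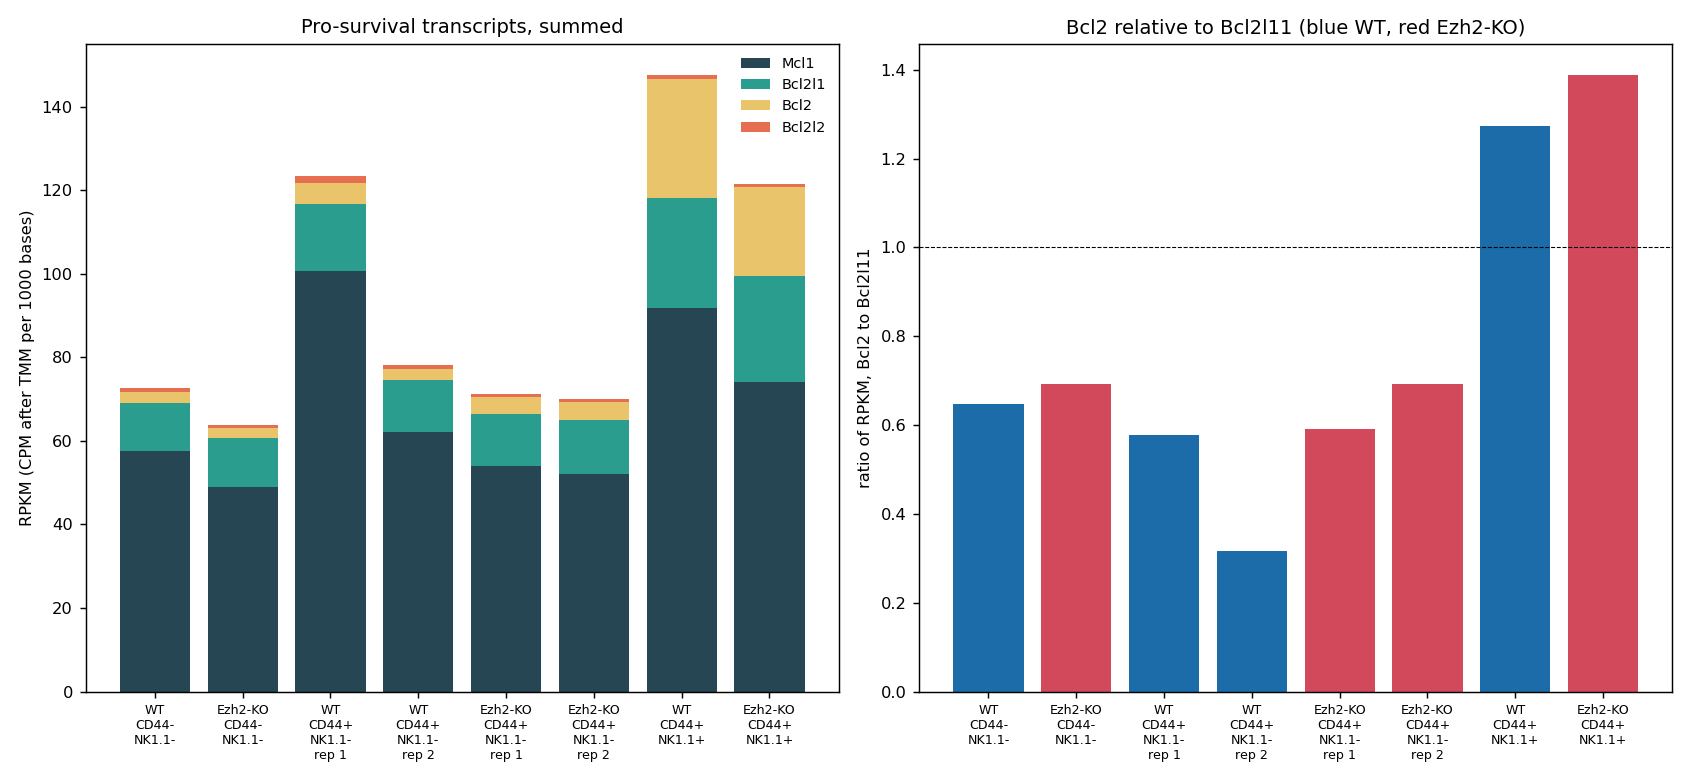
Left, summed RPKM of the 4 pro-survival genes in each library, stacked by gene; right, the ratio of Bcl2 to Bcl2l11 RPKM in each library, with a dashed line at 1. The Bcl2 segment is widest in the 2 CD44+ NK1.1+ libraries, and only these 2 lie above the line, at 1.27 and 1.39.

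The comparison of genotypes over the 3 subsets, with subset as a term, asks which members differ with loss of Ezh2. Of the 10 genes, 2 rose (Bmf and Pmaip1, both BH3-only) and 2 fell (Bcl2l11, also BH3-only, and the effector Bak1). Over all genes 11.3% were called, 6.43% as higher and 4.89% as lower. The median log2 change was −0.09 for the 10 genes and −0.01 for all genes. No pro-survival gene was called.

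Bmf, whose product responds to detachment and stress at the cytoskeleton, was higher in every Ezh2-KO library. It gave 4.90 CPM in WT and 12.2 CPM in Ezh2-KO CD44- NK1.1- cells. In CD44+ NK1.1- cells the values were 6.90 and 5.25 CPM in WT and 11.0 and 10.2 CPM in Ezh2-KO, and in CD44+ NK1.1+ cells 8.87 CPM in WT and 12.2 CPM in Ezh2-KO. The lowest Ezh2-KO value lay above the highest WT value of any subset. The share of all genes separated so fully was not counted, and 15.5% were separated in this direction within each subset. Bmf rose by 0.84 on the log2 scale (SE 0.16, adjusted p = 0.0142), or 1.79-fold. The call was lost without Ezh2-KO CD44+ NK1.1- replicate 1 (log2 0.83, adjusted p = 0.0667) or replicate 2 (log2 0.87, adjusted p = 0.0591).

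Pmaip1 was also higher in Ezh2-KO than in WT in each subset. The values were 4.81 and 9.58 CPM in CD44- NK1.1- cells of WT and Ezh2-KO, and 1.35 and 6.03 CPM in CD44+ NK1.1+ cells. In CD44+ NK1.1- cells they were 6.22 and 2.80 CPM in WT and 10.7 and 8.33 CPM in Ezh2-KO, so the genotypes did not overlap within a subset, though WT replicate 1 there lay above the Ezh2-KO CD44+ NK1.1+ library. The log2 change was 1.27 (SE 0.29, adjusted p = 0.0316), or 2.41-fold. The call was lost on leaving out any 1 of the 8 libraries other than WT CD44+ NK1.1- replicate 1, with log2 changes from 1.05 to 1.39 and an adjusted p of at most 0.110.

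Bcl2l11 was lower in each Ezh2-KO library than in WT of the same subset, with the values given above, and its log2 change was −0.39 (SE 0.07, adjusted p = 0.0144). That is 1.31-fold. The call was lost without the WT CD44+ NK1.1+ library (log2 −0.34, adjusted p = 0.0721), the Ezh2-KO CD44+ NK1.1+ library (log2 −0.34, adjusted p = 0.067) or Ezh2-KO CD44+ NK1.1- replicate 2 (log2 −0.36, adjusted p = 0.0747). Bak1 gave 129 CPM in WT and 112 CPM in Ezh2-KO CD44- NK1.1- cells, 136 and 153 CPM in WT and 111 and 118 CPM in Ezh2-KO CD44+ NK1.1- cells, and 119 and 99.7 CPM in WT and Ezh2-KO CD44+ NK1.1+ cells. Within each subset 14.5% of all genes lay wholly lower in Ezh2-KO, and across subsets that share was not counted. For Bak1 every Ezh2-KO value lay below every WT value, by a small margin. Its log2 change was −0.28 (SE 0.06, adjusted p = 0.0264), or 1.22-fold, and the call was lost without WT CD44+ NK1.1- replicate 2, either CD44+ NK1.1+ library, either Ezh2-KO CD44+ NK1.1- replicate or the Ezh2-KO CD44- NK1.1- library, at log2 changes of −0.24 to −0.31 and an adjusted p of at most 0.110. Without Ezh2-KO CD44+ NK1.1- replicate 2 none of the 10 genes was called (489 genes in all), and without WT CD44+ NK1.1- replicate 1 the count was 6, beside 20.4% of all genes, with Mcl1 (log2 −0.25) and Bbc3 (log2 0.55) added.

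The pro-survival genes were not called over the 3 subsets. Mcl1 had lower values in Ezh2-KO than in WT of each subset: 171 against 201 CPM in CD44- NK1.1- cells, 188 and 182 against 352 and 217 CPM in CD44+ NK1.1- cells, and 258 against 320.3 CPM in CD44+ NK1.1+ cells. Its log2 difference was −0.44 (SE 0.15, adjusted p = 0.106), and DESeq2 called it (log2 −0.44, adjusted p = 0.0172). Bcl2l2 showed the same order in each subset, with a log2 difference of −0.56 (SE 0.18, adjusted p = 0.0900) at levels of at most 122 counts. Bcl2 differed by −0.09 (SE 0.22, adjusted p = 0.839) and Bcl2l1 by −0.09 (SE 0.09, adjusted p = 0.570). Bax gave 0.04 (SE 0.05, adjusted p = 0.711) and Bbc3 gave 0.32 (SE 0.21, adjusted p = 0.378). Counting levels alone, 2 members lay above WT in all 3 subsets, as 15.5% of all genes did, and 4 lay below (Bcl2l2, Mcl1, Bcl2l11 and Bak1), as 14.5% did.

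**Figure D4:**
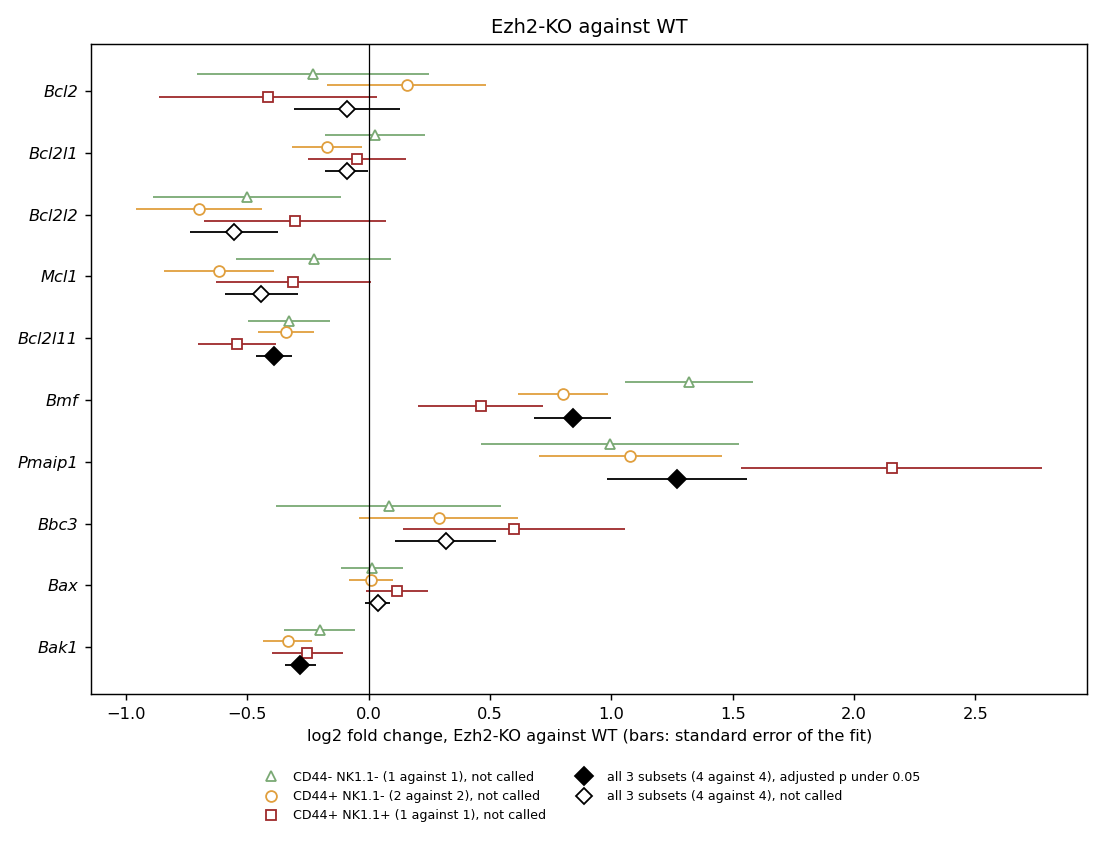
Log2 fold change of Ezh2-KO against WT for each gene in CD44- NK1.1- (triangles), CD44+ NK1.1- (circles) and CD44+ NK1.1+ cells (squares) and over all 3 subsets (diamonds); bars are standard errors of the fit and filled symbols mark an adjusted p under 0.05. Filled diamonds belong to Bmf and Pmaip1, which lie to the right of 0, and to Bcl2l11 and Bak1, which lie to the left.

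Within single subsets none of the 10 genes was called by edgeR. In CD44+ NK1.1- cells, the subset with replicates, 6 of 10 had an unadjusted p under 0.05 beside 20.7% of all genes, while 4.94% of genes were called after adjustment. DESeq2 called 1 member, Mcl1 (log2 −0.62, adjusted p = 0.0474), and limma-voom none. The fitted log2 differences there were 1.08 for Pmaip1 (SE 0.38, adjusted p = 0.189), 0.80 for Bmf (SE 0.18, adjusted p = 0.073), −0.70 for Bcl2l2 (SE 0.26, adjusted p = 0.201) and −0.34 for Bcl2l11 (SE 0.12, adjusted p = 0.171). Bak1 gave −0.34 as well (SE 0.10, adjusted p = 0.139). For CD44+ NK1.1+ cells edgeR called 0.95% of genes, and 2 members had an unadjusted p under 0.05, Pmaip1 (log2 2.15, SE 0.62) and Bcl2l11 (log2 −0.54, SE 0.16). DESeq2 and limma-voom called none. For CD44- NK1.1- cells 0.239% of genes were called and Bmf alone among the members had an unadjusted p under 0.05 (log2 1.32, SE 0.27), again with none called by the other tools.

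The direction for Bcl2 in CD44+ NK1.1- cells rested on which WT replicate was used. Both Ezh2-KO values lay between the WT values, and the log2 difference of 0.16 (SE 0.33, adjusted p = 0.846) became 0.73 without WT replicate 1 and −0.26 without WT replicate 2, each past the threshold of the reduced fit. Bbc3 went from 0.29 to 0.89 and −0.14 on the same omissions. Without WT replicate 1 the reduced fit called 7 members in this subset, beside 27.3% of all genes, and without WT replicate 2 it called 8, beside 42.0%. In the other subsets either omission called 6 members in CD44+ NK1.1+ cells (17.8% and 17.7% of all genes) and 3 in CD44- NK1.1- cells (18.1% and 18.0%). These fits again take their error from the Ezh2-KO pair.

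Whether the genotype difference itself varied between subsets was tested as an interaction. No member was called for CD44+ NK1.1+ minus CD44+ NK1.1- cells (0 of 13794 genes, or 0%, called) or for CD44- NK1.1- minus CD44+ NK1.1- cells (0.0217% called), and none had an unadjusted p under 0.05 in edgeR, DESeq2 or limma-voom. For the former, the difference was 1.08 for Pmaip1 (SE 0.73) and −0.57 for Bcl2 (SE 0.56). Leaving out WT CD44+ NK1.1- replicate 1 made Bcl2 a call (−1.15), beside 4.13% of all genes, and leaving out replicate 2 made 3 calls, among them Pmaip1 (1.55), beside 19.1%. For the latter, leaving out either WT replicate made 2 calls, beside 4.39% and 22.2% of all genes.

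Libraries of the Ezh2-KO genotype also differed in genes listed as markers of other cells. Bulk RNA does not show whether other cells or the NKT cells themselves expressed them. Beside 6.43% of all genes, 3 of the 6 NK and innate lymphoid markers were higher over the 3 subsets (Eomes, Klra4 and Klra8). Their summed level was 230 and 241 CPM in Ezh2-KO against 87.4 and 133 CPM in WT CD44+ NK1.1- cells and 1200 against 396 CPM in CD44+ NK1.1+ cells, but 15.7 against 13.9 CPM in CD44- NK1.1- cells. Ncr1 was at 0 in 2 Ezh2-KO and 2 WT libraries. In CD44+ NK1.1+ cells it gave 6.79 CPM in Ezh2-KO and 4.73 CPM in WT. In replicate 1 of CD44+ NK1.1- cells it gave 0.0477 CPM in Ezh2-KO and 0.225 CPM in WT. Erythroid genes (3 measured) summed to 0.450 to 51.1 CPM in Ezh2-KO and 0.854 to 1.29 CPM in WT libraries, and the 5 markers of double positive thymocytes to 8.55 to 46 and 22.4 to 63.8 CPM. By library, the erythroid sum was 18.1 CPM in Ezh2-KO CD44- NK1.1- cells, 17.2 and 0.450 CPM in CD44+ NK1.1- replicates 1 and 2, and 51.1 CPM in CD44+ NK1.1+ cells. Each Ezh2-KO library thus had a higher sum than WT of its subset in the NK and innate lymphoid list, the erythroid list or both. The part of these markers in the genotype differences of the 10 genes, Bmf included, was not tested.

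The wider BCL-2 family was followed in a list of 15 further genes, of which 11 were tested. Of these 2 rose and 1 fell at the last step, where 16.4% of all genes were called as higher and 16.1% as lower. At the last maturation step Bid, whose product links death receptors to mitochondria, rose from 38.9 to 45.1 CPM in the 4 CD44+ NK1.1- libraries to 64.4 and 64.7 CPM (log2 0.63, SE 0.08, adjusted p = 0.00404). Bnip3l, a mitophagy receptor, rose by 0.36 (adjusted p = 0.0280), and Bcl2l14 fell by 1.49 (adjusted p = 0.0229) at no more than 3.42 CPM. The median log2 change of the list was 0.04 against 0.00 over all genes. Over the 3 subsets Bnip3 was the single gene of the list called between genotypes, beside 11.3% of all genes. It stood at 8.44 to 10.5 CPM in Ezh2-KO and 5.89 to 7.91 CPM in WT libraries (log2 0.48, SE 0.12, adjusted p = 0.0440). The pro-survival A1 genes Bcl2a1a, Bcl2a1b and Bcl2a1d, at 37.8 to 174 CPM, were not called. They are near-identical copies, so the split of reads between them is uncertain. Bcl2l10 had no read in any library, which allows up to 0.151 CPM in Ezh2-KO CD44+ NK1.1+ cells and less in the others. Hrk and Bok had at most 3 counts.

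In a list of 16 survival cytokine receptors and their signalling genes, 11 rose, none fell and 5 were not called from CD44+ NK1.1- to CD44+ NK1.1+ cells, where 16.4% of all genes were called as higher, with a median log2 change of 0.66 against 0.00 over all genes. Il2rb, the chain shared by the IL-2 and IL-15 receptors, rose by 2.47 (SE 0.16, adjusted p = 0.000688), Il7r by 0.81, Jak1 by 0.71 and Socs1, a feedback inhibitor of the same pathway, by 1.1. In Ezh2-KO against WT over the 3 subsets none of the 16 rose and 2 fell, Socs1 (log2 −0.62, adjusted p = 0.00794) and Il2ra (log2 −0.65, adjusted p = 0.0130). Over all genes 6.43% were called as higher there and 4.89% as lower. Tested within CD44+ NK1.1- cells, where 4.94% of all genes were called, none of the 16 rose and 2 fell. Il2rb, 1 of these 2, fell by 1.16 (adjusted p = 0.0303), from 927 and 627 CPM in WT to 364 and 332 CPM in Ezh2-KO. The other is not named here. In CD44- NK1.1- cells Il2rb was at 190 CPM in Ezh2-KO against 326 CPM in WT, and in CD44+ NK1.1+ cells at 2730 against 3043 CPM.

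Among 17 tested regulators of family transcription, 5 rose and 2 fell at the last step. Over all genes 16.4% were called as higher there and 16.1% as lower. Foxo4, a forkhead activator of BIM, rose by 0.64 (adjusted p = 0.0144), and Runx3 rose by 1.27 (adjusted p = 0.00120), while Myb fell by 1.43 (adjusted p = 0.000759) and the cell cycle activator E2f1 fell by 0.69 (adjusted p = 0.00483). Between genotypes over the 3 subsets only Myb was called (log2 0.53, adjusted p = 0.0346), beside 11.3% of all genes. In CD44+ NK1.1- cells, where 4.94% of all genes were called, Bcl6 was higher in Ezh2-KO (log2 1.35, adjusted p = 0.0158) and Runx3 lower (log2 −0.86, adjusted p = 0.0247).

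Each of the 10 genes has a span in the RefSeq annotation, and 3 overlap another gene that was counted: Bcl2l1 with Cox4i2 (0 to 1 counts per library), Bcl2l11 with Acoxl (0 to 133 counts) and Bak1 with Ggnbp1 (2 to 14 counts). The sources used here leave out whether the authors counted by strand. Bcl2l11 itself had 378 to 2333 counts per library.

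The genes whose pattern lay nearest to that of Bcl2 were sought over the 8 libraries among 13397 tested genes with a symbol, as the smallest root mean square difference of log2(CPM + 0.5) centred on each gene's own mean. They were Entpd1, which encodes the ectonucleotidase CD39 (difference 0.26), Hid1 (difference 0.26) and the kinase gene Sgk1 (difference 0.29). Entpd1 ran from 10.5 to 105 CPM and Sgk1 from 8.36 to 82.9 CPM. The measure follows mainly the rise in the 2 CD44+ NK1.1+ libraries, in which Entpd1 stood at 105 CPM in WT and 74.0 CPM in Ezh2-KO.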

How the data were processed

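RNA of 8 sorted thymic NKT cell libraries was sequenced, each sample on 4 lanes. The authors deposited unnormalized counts of reads for each gene, and the submitters' processing notes name CASAVA, Subread 1.4.3-p1, featureCounts and mouse build mm10. The gene lengths beside them are also deposited. Annotation and strand setting: not given in the sources used here. Counts in the 8 single-library files matched the series table exactly. Depth was 20308745 to 22995090 counts, so 3 counts, the limit that a count of 0 allows, equal 0.129 to 0.151 CPM, for counting error only.

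Tests used R 4.3.3 and edgeR 4.0.16. Genes were kept by filterByExpr on 6 groups, which left 13794. Libraries were scaled by TMM, and models were fitted with glmQLFit (robust) and tested by quasi-likelihood, with p-values adjusted by Benjamini and Hochberg over all genes. Standard errors (SE), in the text and as figure bars, were derived from that test. Each is the absolute log2 change divided by the square root of the F statistic. The model of 6 group means left 2 residual degrees of freedom (prior 4.17, biological coefficient of variation 0.141) and gave genotype effects per subset, subset steps and interactions. The model of subset plus genotype left 4 and gave the effect over the 3 subsets, which assumes it alike in each. P-values of the model of 6 group means rest on the spread within the 2 CD44+ NK1.1- pairs and on the prior. The single libraries were assumed to vary alike. In the model of subset plus genotype the spread also holds differences of the genotype effect between subsets. Alternatives used DESeq2 1.42.0, limma 3.58.1, other scaling, other filters and omitted libraries. The script was tested on simulated data.

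The members and gene lists were chosen with earlier results of these data known. All members are named, and from each list the called genes with the smallest p (up to 4, and every one for the wider BCL-2 family). In some comparisons fewer are named. Lists for caspases, mitochondrial partners, death receptors and B, myeloid, dendritic and epithelial cells were also counted. Gene symbols and promoters came from RefSeq, for 25275 of 27179 identifiers.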

Additional observations from a re-analysis of the deposited data

How the results depend on the processing

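Of the alternatives, those that left out a library moved most counts. The share of all genes called also moved widely in these fits, so the ranges below do not describe the members alone. The number of the 10 genes called ranged from 0 to 6 over the 3 subsets, from 0 to 8 between genotypes in CD44+ NK1.1-, from 0 to 6 in CD44+ NK1.1+ and from 0 to 3 in CD44- NK1.1- cells. It ranged from 0 to 6 at the first step, from 3 to 9 at the second, from 3 to 8 from the earliest to the latest subset, and from 0 to 3 and 0 to 2 for the 2 interactions. Log2 changes that crossed 0 on leaving out a library were those of Bcl2 over the 3 subsets (−0.30 to 0.041), of Bcl2 (−0.26 to 0.73), Bcl2l1 (−0.34 to 0.018), Bbc3 (−0.14 to 0.89) and Bax (−0.019 to 0.035) between genotypes in CD44+ NK1.1- cells, and of Bmf (−0.057 to 0.14), Pmaip1 (−0.40 to 0.18) and Bbc3 (−0.28 to 0.23) at the first step. None of these was called in the fit of all libraries.

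With total counts in place of TMM, 6 members were called at the second step, and of all called genes there 31.8% were higher against 50.5% with TMM. Over the 3 subsets that share was 68.1% against 56.8%, and from the earliest to the latest subset 33.2% against 49.7%. With no filter 1 member (Bmf) was called between genotypes in CD44+ NK1.1- cells. DESeq2 called 1 there and 5 from the earliest to the latest subset. The mean of the 3 genotype effects, chosen after seeing the data, called 2 over the 3 subsets. Ezh2-KO libraries alone called 0 at the first step, and gave Bmf −0.21 there, Bcl2l2 0.050 at the second and Bmf −0.0022 from the earliest to the latest subset. Bbc3 at the first step was −0.024 with limma-voom and −0.080 in WT alone. The causes were not tested.

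The calls of Bcl2, Bcl2l1 and Bcl2l11 in CD44+ NK1.1+ cells were kept in all 14 alternatives run. Over the 3 subsets Bmf kept its call in 14 of 16, Bcl2l11 in 13, Bak1 in 9 and Pmaip1 in 8, each with its direction. Over all genes the calls over the 3 subsets ranged from 489 to 2794 (1561 with the settings reported), and between genotypes in CD44+ NK1.1- cells from 101 to 5792 (682).

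No paired analysis was made, because the labels give the libraries only running numbers, which do not show whether WT and Ezh2-KO libraries were paired. Depth limits Bcl2l2 and Pmaip1 most, at 45 to 122 and 28 to 224 counts per library.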

Other observations

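Genes that act beside and after the BCL-2 family were counted in 3 further lists. Of all genes, 16.4% were called as higher and 16.1% as lower at the last step. Between genotypes over the 3 subsets the shares were 6.43% and 4.89%. At the step from CD44+ NK1.1- to CD44+ NK1.1+ cells, 4 of 11 death receptor genes rose and 1 fell, with a median log2 change of 0.24. Tnfsf10, which encodes the ligand TRAIL, rose by 1.39 (SE 0.08, adjusted p = 0.000554), and Tnfrsf1a, a TNF receptor, rose by 1.21 (SE 0.09, adjusted p = 0.000737). Cflar, whose product blocks caspase-8, rose by 0.61 and the necroptosis kinase gene Ripk3 fell by 0.65. In Ezh2-KO against WT over the 3 subsets Tnfsf10 fell by 0.41 and Cflar by 0.38 (adjusted p = 0.00796 for each), and no gene of the list rose.

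Of 17 caspase and apoptosome genes, 2 rose and 2 fell at that step, with a median of 0.08. Casp9, the caspase of the apoptosome, rose by 0.56 and Birc3 by 0.56, while Birc5, which encodes survivin and is expressed in dividing cells, fell by 1.01 and Cycs, the cytochrome c gene, fell by 0.48. Between genotypes over the 3 subsets Birc3 alone was called and fell by 0.40 (adjusted p = 0.0352). Of 12 genes for partners at the outer mitochondrial membrane and the endoplasmic reticulum, 3 rose and 3 fell at the step, with a median of 0.10. The calcium channel genes Itpr2 (log2 0.95) and Itpr3 (log2 0.53) rose as Itpr1 (log2 −0.71) and the pore gene Vdac1 (log2 −0.60) fell. Itpr2 was the one gene of that list called between genotypes over the 3 subsets, where it fell by 0.38. The median of all genes was 0.00 at the step and −0.01 between genotypes.

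The markers of B cells summed to 0.899 to 4.78 CPM, of dendritic cells to 3.67 to 10.5 CPM, of myeloid cells to 4.64 to 17.3 CPM and of epithelial cells to 2.15 to 5.59 CPM over the 8 libraries. The summed RPKM of the 4 pro-survival members was set against that of the 4 BH3-only members. The A1 genes were left out of the first sum and Bid out of the second. The ratio was 3.16 to 3.59 in the 4 Ezh2-KO libraries and 4.22 to 5.55 in the 4 WT libraries. That ratio was formed after the values were seen and has no test. How often ratios of other gene sets separate the genotypes was not counted.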
